A study of Mus musculus with 22 samples.

Results

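Maternal loss of Setd2 was examined in zygotes by comparing 4 RNA-seq libraries, 2 from Setd2 knockout zygotes and 2 from control zygotes. The genes described are those with at least 1 FPKM (fragments per kilobase of transcript for every M fragments mapped, M for mega) in at least 2 of these 4 libraries. There were 10077 such genes among the 12199 tested and the 22592 listed in the table. At the edge of this rule, the second highest zygote value was 1.0002 FPKM for Pmpca, just inside, and 0.99926 FPKM for A230072C01Rik, just outside. All 4 libraries reached 1 FPKM for 8162 of the genes, while 484 did so in both knockout and in neither control library, and 332 in both control and in neither knockout library.

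The knockout zygotes are labelled Setd2_KO and the control zygotes Setd2_Con, both at the 1-cell stage (1C), and the study describes the knockout as a maternal one. Females were 8 weeks old, were primed with PMSG and hCG, and both kinds of zygote were collected 30 h after hCG. Full-grown oocytes (FGO) of the same 2 genotypes, again with 2 libraries each, are used for comparison. The labels of these libraries state no allele, no Cre driver, no strain, no sire and no number of zygotes per library, and they do not say that replicates came from separate females. The p-values therefore measure a spread between libraries that may be technical. That spread is not of the zygote libraries alone, but is pooled over all 12 libraries of the table, in 6 groups. Besides zygotes and oocytes these include a later set, whose controls are labelled 2C and whose knockouts are labelled 1C. Libraries were made from total RNA by the Smart-seq2 protocol, which amplifies polyadenylated RNA from very few cells, and the study asked with them whether abnormal transcription passes from the mutant oocyte into the embryo.

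SETD2 is the enzyme that places trimethylation on lysine 36 of histone H3 along transcribed genes, and in growing oocytes this mark guides DNA methylation. The zygote transcribes little of its genome and lives on RNA and protein made while the oocyte grew. Much of that maternal RNA is stored with short poly(A) tails, translated on cue and then degraded during meiotic maturation and after fertilization, before the embryonic genome takes over.

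The 4 zygote libraries were close in depth. Depth, estimated from the size of the steps that separate low FPKM values, came to 3.39 and 3.17 M fragments in the knockout libraries and 3.39 and 3.08 M in the controls, and 9589 and 9862 genes reached 1 FPKM in the knockout, against 9613 and 9326 in controls. Across the 10077 genes, which are not independent replicates, the Spearman correlation was 0.952 between the knockout replicates and 0.955 between the control replicates. Between knockout and control it was 0.854 to 0.86 for knockout replicate 1 and 0.796 to 0.81 for knockout replicate 2. Knockout zygote replicate 1 correlated at 0.885 and 0.893 with knockout oocytes and at 0.859 and 0.862 with control oocytes. Knockout zygote replicate 2 was closer to both, at 0.934 and 0.946 with knockout oocytes and at 0.912 and 0.917 with control oocytes. Control zygotes correlated at 0.79 to 0.816 with control oocytes and at 0.75 to 0.777 with knockout oocytes. All of these values share the table and its annotation and are given as a description.

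Setd2 itself was at 1.3 and 1.73 FPKM in knockout zygotes, against 12.1 and 8.85 FPKM in control zygotes. It fell by 2.18 ± 0.25 (limma adjusted p = 0.000208), and the 2 groups did not overlap. The value covers the whole gene, so it does not show whether the remaining transcript could encode the enzyme. Changes throughout are differences of log2(FPKM + 1) between knockout and control, with the standard error (SE) after the ± sign. The SE comes from the pooled spread of the fit and not from the zygote libraries alone. The log2(FPKM + 1) scale understates the change of genes near 0. FPKM is a share of each library, so a gene that makes up more of the RNA and a zygote with less of all other RNA cannot be told apart. The protocol amplifies polyadenylated RNA and tail length was not measured, so changes of tail length and of amount cannot be told apart either.

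Markers of other cells were measured in the same libraries. Of 16 granulosa and cumulus cell markers, 4 reached the 1 FPKM rule and 5 were listed at 0 in all 4 libraries, including Inha and Amh. Their summed level was 34.1 and 32.1 FPKM in knockout zygotes, against 19.1 and 25.8 FPKM in control zygotes. Most of it was Cyp19a1, the aromatase gene, at 20.1 and 15.1 FPKM in knockout zygotes, against 13.1 and 19.7 FPKM in control zygotes, which did not pass (limma adjusted p = 0.814). Fshr, the receptor of follicle-stimulating hormone, was at 3.08 and 4.18 FPKM in knockout zygotes, and listed at 0 in both control zygote libraries, and it was called higher (limma adjusted p = 0.000998). Nr5a2 and Kitl, again singled out after their values were seen, were also called higher, but lost their calls when single zygote libraries were left out. The 8 oviduct and epithelial markers summed to 11.5 and 14.2 FPKM in knockout zygotes, against 2.01 and 0.858 FPKM in control zygotes. In the knockout nearly all of it came from 2 genes. Krt8, a keratin, was at 7.35 and 8.7 FPKM in knockout zygotes, against 0 and 0.0907 FPKM in control zygotes. Epcam, an adhesion molecule, was at 4.15 and 5.0 FPKM in knockout zygotes, against 1.41 and 0.156 FPKM in control zygotes. The oviduct protein gene Ovgp1 was listed at 0 in both knockout libraries. The 13 sperm and testis markers summed to 77.3 and 86.9 FPKM in knockout zygotes, against 51.7 FPKM in each control library. Most of this was Odf2, an outer dense fibre gene, at 46.9 and 42.7 FPKM in knockout zygotes, against 41.9 and 39.6 FPKM in control zygotes, which did not pass (limma adjusted p = 0.686). The protamine gene Prm2 was at 13.6 and 11 FPKM in knockout zygotes, against 5.77 and 6.39 FPKM in control zygotes and did not pass (limma adjusted p = 0.251), while Prm1 and Tnp1 were listed at 0 in all 4. Ldhc, a lactate dehydrogenase of the germ line, was at 13.4 and 29.5 FPKM in knockout zygotes, against 1.9 and 1.31 FPKM in control zygotes and was called higher (limma adjusted p = 0.00296). In full-grown oocytes Ldhc was at 8.76 and 37.3 FPKM in the knockout, against 13.4 and 23.2 FPKM in controls. Blood markers summed to at most 3.79 FPKM in every library, and stroma and endothelium markers summed to 9.54 and 6.68 FPKM in knockout zygotes, against 13.6 and 8.14 FPKM in control zygotes. The 10 oocyte and zygote markers summed to 23085 and 21866 FPKM in knockout zygotes, against 15393 and 14023 FPKM in control zygotes. Of these, 4 were called higher, 1 lower and 5 did not pass. H1foo alone was at 9363 and 7515 FPKM in knockout zygotes, against 2714 and 2306 FPKM in control zygotes. Bcl2l10 was the one called lower, at 4265 and 3045 FPKM in knockout zygotes, against 6129 and 5999 FPKM in control zygotes. In full-grown oocytes the granulosa markers summed to 42.1 and 37.2 FPKM in the knockout, against 44.4 and 40.4 FPKM in controls. The sperm and testis markers there summed to 35.3 and 72.4 FPKM in the knockout, against 60.4 and 77.4 FPKM in controls. Oviduct and epithelial markers there summed to 8.02 and 6.1 FPKM in the knockout, against 3.51 and 5.2 FPKM in controls. Fshr was at 9.49 and 8.25 FPKM in knockout oocytes, against 0.415 and 0.18 FPKM in control oocytes. The part of other cells in the results was not tested. Cyp19a1, Fshr, Krt8, Epcam, Odf2, Prm2, Ldhc and Bcl2l10 were singled out after their values were seen.

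Knockout and control zygotes differed at a large share of genes. Of the 10077 genes, limma called 3676 (36.5%) at an adjusted p under 0.05, with 2142 (21.3%) higher and 1534 (15.2%) lower in the knockout. Over all 12199 genes tested the shares were 31.6%, 18.5% and 13.1%. The median change over the 10077 was 0.03, and the middle 50% of genes lay between -0.53 and 0.73. Large rises outnumbered large falls, with 465 genes called higher by at least 2 on the log2 scale and 82 called lower by that much. Both knockout libraries stood above both controls for 3515 genes (34.9%) and below both for 3154 (31.3%), together 66.2% of the genes. This held for every gene whose zygote FPKM values are given from here to the end of the comparison with oocytes. The direction of the calls depended on the scaling of the libraries: quantile normalization moved the median of these genes to -0.12 and gave 1894 higher and 2132 lower, so 47% of the calls were higher in place of 58.3%. The test draws its estimate of spread from all 12 libraries of the table, since each group has only 2 libraries. This does not lift the limit of the design, as 2 libraries against 2 allow no exact permutation p below 0.33. With the 4 zygote libraries alone limma called 0 genes, with 3289 at an unadjusted p under 0.05. Without knockout replicate 2 it called 2171, 1311 higher and 860 lower, and without control replicate 1 it called 2467, 1603 higher and 864 lower.

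**Figure D1:**
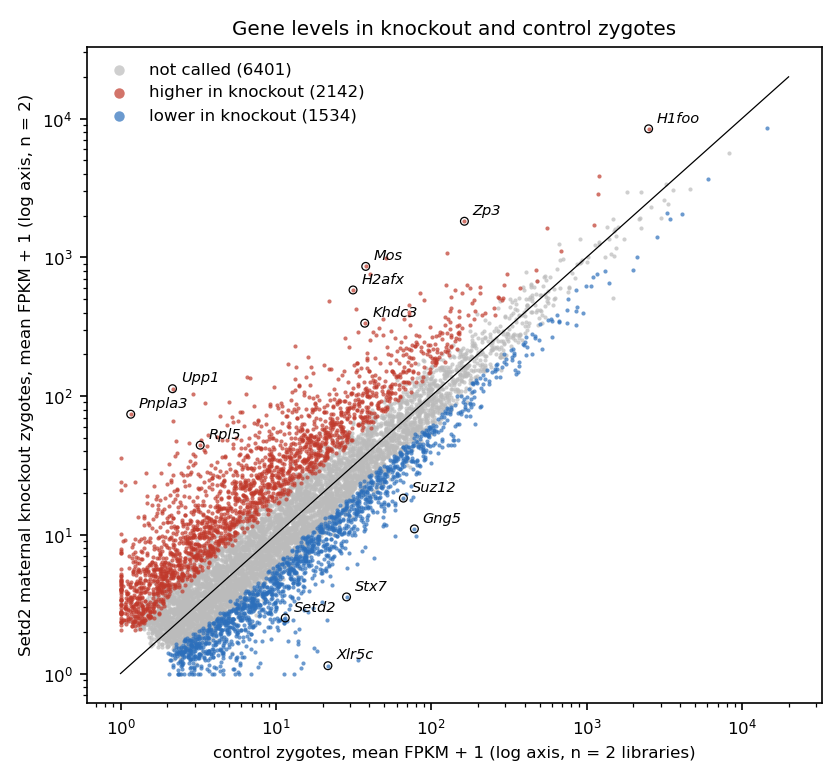
Mean FPKM + 1 of 10077 genes in knockout zygotes (vertical, log axis) against control zygotes (horizontal, log axis), 2 libraries per group, with red for the 2142 genes called higher in the knockout, blue for the 1534 called lower and grey for the rest. Circled genes include Mos and Zp3 far above the line of equal level and Xlr5c and Stx7 far below it.

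Several abundant messages of the egg were at higher FPKM in knockout zygotes. Mos, a kinase of the metaphase arrest of the egg, was at 845 and 873 FPKM in knockout zygotes, against 44.9 and 28.9 FPKM in control zygotes. It rose by 4.54 ± 0.21 (limma adjusted p = 2.15e-06). In full-grown oocytes Mos stood at 621 and 651 FPKM in knockout oocytes, against 759 and 872 FPKM in control oocytes. The knockout zygote libraries lay within or just above the range of the oocyte libraries, and both control zygote libraries far below it. Of 14 measured genes of the zona pellucida and egg surface list, 6 rose, 1 fell and 7 did not pass (median 0.73). Among the zona and egg surface genes there were 6 rises and 1 fall (median 0.45) without control replicate 2. Zp3, a gene of the egg coat, was at 1103 and 2534 FPKM in knockout zygotes, against 166 and 159 FPKM in control zygotes. Its level was 4188 and 5217 FPKM in knockout oocytes, against 5023 and 4476 FPKM in control oocytes. Zp1, which links the coat filaments, was at 406 and 701 FPKM in knockout zygotes, against 82.3 and 84.9 FPKM in control zygotes, and rose by 2.66 ± 0.24 (limma adjusted p = 6.54e-05). Plat, the tissue plasminogen activator, is a stored egg message that is translated at meiotic maturation, and was at 1105 and 1042 FPKM in knockout zygotes, against 114 and 136 FPKM in control zygotes. It rose by 3.10 ± 0.23 (limma adjusted p = 2.66e-05), and both knockout libraries exceeded all 4 oocyte libraries, which held 828 and 951 FPKM in knockout oocytes, against 578 and 657 FPKM in control oocytes. The coat gene Zp2, the tetraspanin gene Cd9 and Zar1l were the other rises, and Sebox was the fall. Zar1l lost its call without knockout replicate 2 or without control replicate 1. Sebox is also counted below among the transcription factors, and Zar1l among the maternal-effect genes. The counts and median of this list are therefore not of coat and surface genes alone. Zp2 and Cd9 were named after their values were seen.

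Oocyte transcription factors and growth factors split. Of 13 transcription factor genes, 4 rose, 1 fell and 8 did not pass (median 0.35). Among the oocyte transcription factor genes there were 1 rise and 1 fall (median 0.13) without control replicate 1. Figla, which switches on the zona genes in oocytes, was at 17.2 and 53.1 FPKM in knockout zygotes, against 2.36 and 4.7 FPKM in control zygotes, and rose by 2.84 ± 0.48 (limma adjusted p = 0.00163). Sebox, a homeobox gene of the egg, was at 53.5 and 66.3 FPKM in knockout zygotes, against 154 and 129 FPKM in control zygotes, and fell by 1.23 ± 0.19 (limma adjusted p = 0.00114). Nobox was at 328 and 438 FPKM in knockout zygotes, against 192 and 231 FPKM in control zygotes. Obox1 was at 1682 and 1727 FPKM in knockout zygotes, against 1098 and 1142 FPKM in control zygotes. Both are homeobox genes called higher, but lost the call without control replicate 1 (Obox1 also without control replicate 2). Gtf2a1l was the remaining rise, lost without any 1 of the 4 libraries. Of 11 growth factor and receptor genes, 4 rose, 3 fell and 4 did not pass. Among the growth factor genes there were 3 rises and 1 fall without knockout replicate 2 and 3 rises and 1 fall without control replicate 1. Gdf9, the oocyte factor that drives granulosa cells, was at 2651 and 3031 FPKM in knockout zygotes, against 1336 and 1035 FPKM in control zygotes, and rose by 1.27 ± 0.24 (limma adjusted p = 0.00341). Gja4, the connexin that joins oocyte and granulosa cells, was at 456 and 815 FPKM in knockout zygotes, against 183 and 156 FPKM in control zygotes, and rose by 1.85 ± 0.30 (limma adjusted p = 0.00146). Kit, the receptor of stem cell factor on the oocyte, was at 38.9 and 28 FPKM in knockout zygotes, against 70.7 and 63 FPKM in control zygotes, and fell by 0.99 ± 0.22 (limma adjusted p = 0.00674). In each of Figla, Sebox, Gdf9, Gja4 and Kit the 2 groups did not overlap. Fgf8 and Kitl also rose and Gpr3 and Bmp6 also fell, and each of these lost its call without at least 1 zygote library. Gtf2a1l, Fgf8, Kitl and Bmp6 were named after their values were seen.

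Stored egg messages carry cytoplasmic polyadenylation elements near the end of the 3′ UTR, which bind CPEB and time their translation. The elements TTTTAT and TTTTAAT were searched on the sense strand of the last 100 bases of the 3′ UTR, in GENCODE vM21 transcripts of the GRCm38 build. The windows below show the first such element, in capitals, in 5 genes named for a rise in knockout zygotes and then in 3 named for a fall, to set sites of both directions side by side.
H1foo: cgattctgaagcTTTTATtgtctaataagc
Plat: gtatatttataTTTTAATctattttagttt
Gdf9: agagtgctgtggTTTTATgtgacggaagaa
H2afx: ttaatgggctaaTTTTATtaaaggatcgtt
Bub1b: tctcttttgtaaTTTTATaacatgtactct
Ccnb3: tcttgaaattacTTTTATgaaagaagagaa
Gng5: aaggtttaactaTTTTATatacactggctg
Stx7: catgaaactgacTTTTATtgacaatattta

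H1foo lies on chromosome 6, Plat on 8, Gdf9 on 11, H2afx on 9, Bub1b on 2, Ccnb3 on X, Gng5 on 3 and Stx7 on 10. The elements began 63, 89, 39, 39 and 59 bases before the transcript's end in the first 5, and 68, 45 and 75 bases before it in the last 3. Across all genes with a 3′ UTR of at least 100 bases, an element was present in 18.3% of the 1826 called higher, 21.2% of the 1393 called lower and 20.8% of all 9087. ATTTA, a letter run of destabilizing AU-rich elements that can overlap the first motif, was present in 21.5% of those called higher, 26.6% of those called lower and 23.8% of all. A match in these windows is a string of letters and not a measured site of binding.

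The 2 ribosomal protein lists and the oxidative phosphorylation list had the highest medians of the 31 lists described. Of 75 cytosolic ribosomal protein genes, 56 rose, 1 fell and 18 did not pass (median 2.07), and 62 had both knockout libraries above both controls. Their summed level was 3107 and 6080.2 FPKM in knockout zygotes, against 1730.3 and 1649 FPKM in control zygotes. In oocytes the sums were 7207 and 6784 FPKM in the knockout and 7949.8 and 9503 FPKM in controls, above every zygote library. Rpl5, a protein of the large subunit, was at 31.9 and 54.6 FPKM in knockout zygotes, against 2.07 and 2.45 FPKM in control zygotes, and rose by 3.72 ± 0.27 (limma adjusted p = 2.66e-05). Rps2, of the small subunit, was at 73 and 83.8 FPKM in knockout zygotes, against 10.9 and 10.9 FPKM in control zygotes, and rose by 2.73 ± 0.22 (limma adjusted p = 3.97e-05). Rps19, also of the small subunit, was at 13.1 and 29.7 FPKM in knockout zygotes, against 0.615 and 0.682 FPKM in control zygotes, and rose by 3.66 ± 0.32 (limma adjusted p = 5.13e-05). Rpl41 was at 272 and 702 FPKM in knockout zygotes, against 26.6 and 15.3 FPKM in control zygotes. Rpl26 was at 21.9 and 47.5 FPKM in knockout zygotes, against 0.0117 and 0 FPKM in control zygotes. Rps29 and Rps18 were each listed at 0 in 1 control library. Rps29 was at 45.3 and 93.1 FPKM in knockout zygotes, against 8.39 and 0 FPKM in control zygotes. Rps18 was at 16.5 and 36.8 FPKM in knockout zygotes, against 0 and 0.905 FPKM in control zygotes, and its call was lost without knockout replicate 2 or without control replicate 1. The fall was Rps27l, a p53-responsive paralog of Rps27, at 366 and 288 FPKM in knockout zygotes, against 865 and 849 FPKM in control zygotes, named after its values were seen. Ribosomal protein genes have many near-identical processed copies, so how reads were divided among them is uncertain.

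Knockout replicate 2 was further from the controls than replicate 1 in these genes. The count of cytosolic ribosomal proteins that rose was 70 (median 2.54) without knockout replicate 1 and 47 (median 1.59) without knockout replicate 2. Of 76 mitochondrial ribosomal protein genes, 38 rose, 1 fell and 37 did not pass (median 0.90). Among the mitochondrial ribosomal protein genes there were 26 rises and 3 falls (median 0.55) without knockout replicate 2. They summed to 3072 and 5033 FPKM in knockout zygotes, against 2160.2 and 2060.3 FPKM in control zygotes. Mrpl28 was at 92.3 and 145 FPKM in knockout zygotes, against 13.4 and 12.8 FPKM in control zygotes, and rose by 3.05 ± 0.22 (limma adjusted p = 2.66e-05). Mrps36 was at 71.5 and 86 FPKM in knockout zygotes, against 17.7 and 14.8 FPKM in control zygotes, and rose by 2.21 ± 0.23 (limma adjusted p = 0.000112). Mrpl12, which also binds mitochondrial RNA polymerase, was at 98.6 and 192 FPKM in knockout zygotes, against 18.6 and 14 FPKM in control zygotes. Mrpl14 was at 106 and 217 FPKM in knockout zygotes, against 16 and 8.89 FPKM in control zygotes. The fall was Mrpl3, named after its values were seen and lost without control replicate 2.

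Of 79 genes of oxidative phosphorylation, 55 rose, 2 fell and 22 did not pass (median 1.33). Among the oxidative phosphorylation genes there were 33 rises and 1 fall (median 0.86) without knockout replicate 2. The summed level was 6169.7 and 11474 FPKM in knockout zygotes and 4339 and 4188 FPKM in control zygotes. Ndufb10, of complex I, was at 39.9 and 81.4 FPKM in knockout zygotes, against 3.03 and 4.71 FPKM in control zygotes, and rose by 3.60 ± 0.31 (limma adjusted p = 5.13e-05). Uqcr11 and Uqcrc1 are parts of complex III. Uqcr11 was at 63.7 and 141 FPKM in knockout zygotes, against 3.37 and 7.47 FPKM in control zygotes. Uqcrc1 was at 21 and 41.7 FPKM in knockout zygotes, against 1.08 and 1.0 FPKM in control zygotes. Atp5o, of the ATP synthase stalk, was at 68.1 and 205 FPKM in knockout zygotes, against 5.99 and 5.11 FPKM in control zygotes. In each of these 4 genes both knockout libraries stood above both controls. Cox17, a copper chaperone for complex IV, was among the largest rises of all genes at 76.8 and 191 FPKM in knockout zygotes, against 7.87 and 3.74 FPKM in control zygotes, and it rose by 4.24 ± 0.39 (limma adjusted p = 6.6e-05). The falls were Cox8a, of complex IV, at 264 and 268 FPKM in knockout zygotes, against 648 and 550.2 FPKM in control zygotes, and Ndufa10, which lost its call without knockout replicate 2 or without either control. Both were named after their values were seen.

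Enzymes of central carbon metabolism had a median near 0. Of 37 genes of glycolysis, pyruvate and the TCA cycle, 7 rose, 3 fell and 27 did not pass (median 0.05), and the median turned to -0.14 under quantile normalization and -0.16 without knockout replicate 2. Among the glycolysis and TCA genes there were 1 rise and 1 fall without knockout replicate 2, 3 rises and 3 falls without control replicate 1 and 4 rises and 1 fall without control replicate 2. Mdh2, the mitochondrial malate dehydrogenase, was at 101 and 163 FPKM in knockout zygotes, against 22.4 and 25.6 FPKM in control zygotes, and rose by 2.38 ± 0.24 (limma adjusted p = 0.000109). Pdk1, a kinase that switches off pyruvate dehydrogenase, was at 1.08 and 1.03 FPKM in knockout zygotes, against 3.46 and 3.59 FPKM in control zygotes, and fell by 1.14 ± 0.24 (limma adjusted p = 0.00516). Mpc2 was called higher, and Pdk3 and Pdhb lower, and each lost its call without at least 1 zygote library. Pdk3 and Pdhb were named after their values were seen.

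**Figure D2:**
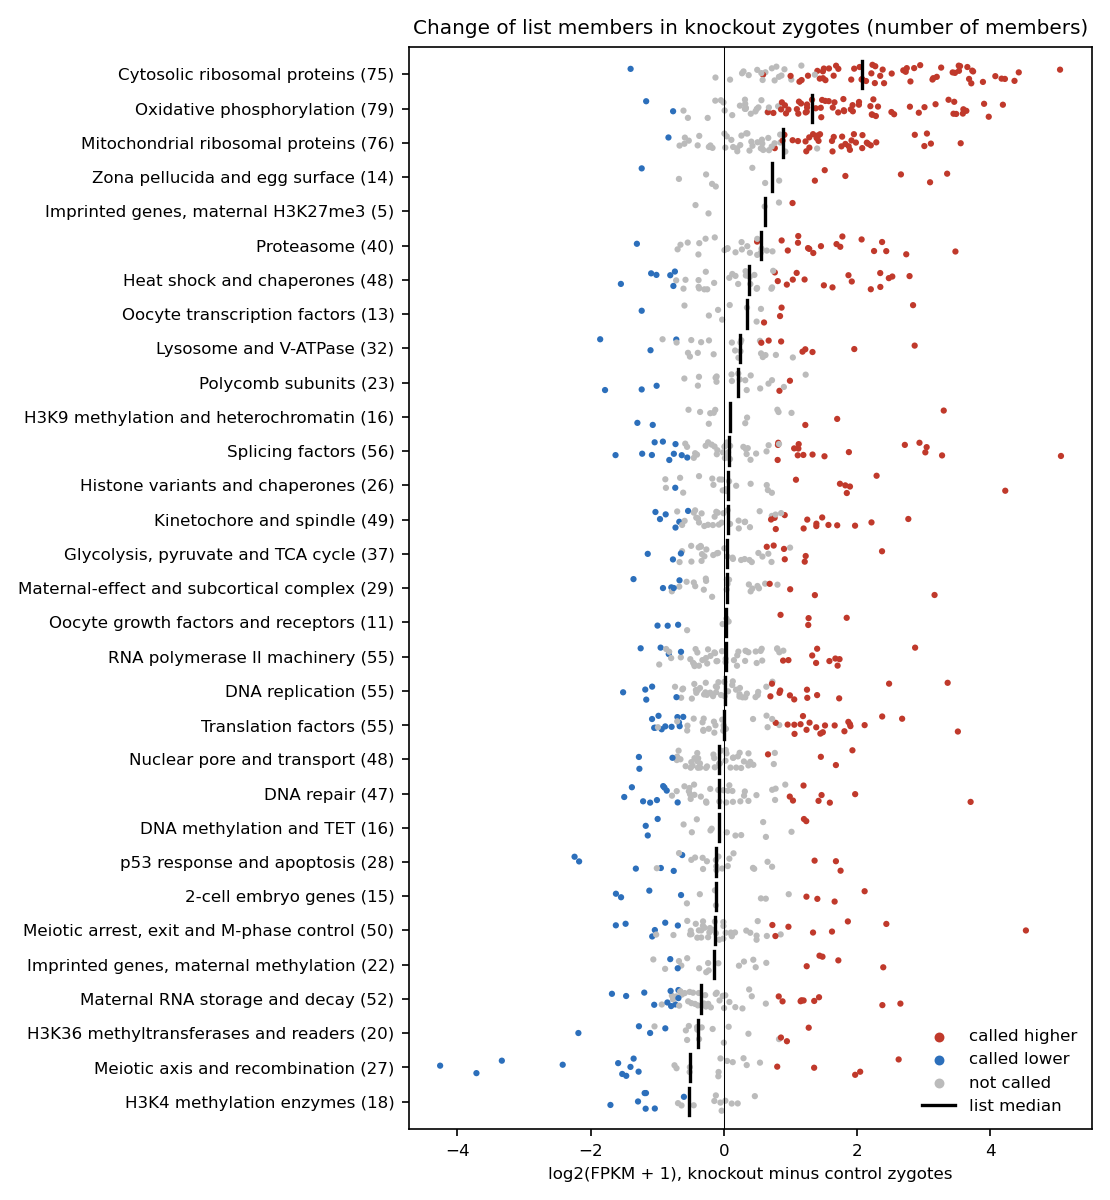
Difference of log2(FPKM + 1) between knockout and control zygotes (horizontal) for the members of 31 gene lists (vertical, number of members in parentheses), with red for members called higher, blue for called lower, grey for not called and a black bar for the list median. The cytosolic ribosomal protein list has the highest median, 2.07, and the H3K4 methylation list the lowest, -0.52.

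Protein turnover, folding and RNA processing genes moved in both directions. Of 40 proteasome genes, 18 rose, 1 fell and 21 did not pass (median 0.56). Among the proteasome genes there were 21 rises and 3 falls (median 0.88) without knockout replicate 1. Psmb1, a core particle subunit, was at 111 and 269.9 FPKM in knockout zygotes, against 11.3 and 18.8 FPKM in control zygotes, and rose by 3.48 ± 0.41 (limma adjusted p = 0.000236). Psmd7, of the regulatory particle, was at 144 and 136 FPKM in knockout zygotes, against 46.4 and 39.1 FPKM in control zygotes. Psmc4, an ATPase there, was at 100.4 and 199 FPKM in knockout zygotes, against 25.7 and 27.1 FPKM in control zygotes. Shfm1, a small subunit of the same particle, was at 169 and 282 FPKM in knockout zygotes, against 50.0 and 52.4 FPKM in control zygotes. The fall was the activator gene Psme3, at 31.7 and 26.2 FPKM in knockout zygotes, against 97.1 and 54.3 FPKM in control zygotes, named after its values were seen. Of 48 heat shock and chaperone genes, 16 rose, 6 fell and 26 did not pass (median 0.37). Among the chaperone genes there were 18 rises and 7 falls (median 0.62) without knockout replicate 1, 14 rises and 3 falls (median 0.08) without knockout replicate 2 and 12 rises and 2 falls without control replicate 1. Cct4, of the ring that folds actin and tubulin, was at 137 and 175 FPKM in knockout zygotes, against 19.8 and 23.4 FPKM in control zygotes, and rose by 2.79 ± 0.21 (limma adjusted p = 3.36e-05). Cct5, of the same ring, was at 238 and 473 FPKM in knockout zygotes, against 56.8 and 74.4 FPKM in control zygotes, and rose by 2.35 ± 0.28 (limma adjusted p = 0.000248). Hspa8, the constitutive heat shock protein, was at 306 and 505 FPKM in knockout zygotes, against 60.2 and 80.7 FPKM in control zygotes. Fkbp4, a cochaperone of steroid receptors, was at 12.4 and 15.8 FPKM in knockout zygotes, against 1.47 and 2.52 FPKM in control zygotes, and rose by 2.35 ± 0.31 (limma adjusted p = 0.000477).

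Of 55 translation factor genes, 21 rose, 11 fell and 23 did not pass (median 0.00), and the median turned to -0.05 under median-ratio rescaling and -0.13 under quantile normalization. Among the translation factor genes there were 14 rises and 7 falls without knockout replicate 2, 17 rises and 4 falls without control replicate 1 and 14 rises and 7 falls without control replicate 2. Eif3l, of initiation factor eIF3, was at 80.3 and 149 FPKM in knockout zygotes, against 10.1 and 7.4 FPKM in control zygotes, and rose by 3.52 ± 0.28 (limma adjusted p = 3.97e-05). Eif3g, of the same factor, was at 66.4 and 134 FPKM in knockout zygotes, against 11.5 and 16.8 FPKM in control zygotes, and rose by 2.68 ± 0.30 (limma adjusted p = 0.000175). Eif4h, a helper of the initiation helicase, was at 66.2 and 133 FPKM in knockout zygotes, against 19.7 and 15 FPKM in control zygotes, and rose by 2.38 ± 0.33 (limma adjusted p = 0.000605). Of 56 splicing genes, 17 rose, 10 fell and 29 did not pass (median 0.08), and the median turned to -0.08 under quantile normalization. Among the splicing genes there were 12 rises and 6 falls without knockout replicate 2 and 14 rises and 4 falls without control replicate 1. Messages for proteins of the same core ring moved apart. Snrpd2 was at 70.7 and 133 FPKM in knockout zygotes, against 1.84 and 2.04 FPKM in control zygotes, and rose by 5.06 ± 0.44 (limma adjusted p = 5.13e-05). Snrpg was at 51.6 and 23.7 FPKM in knockout zygotes, against 110.1 and 109.9 FPKM in control zygotes, and fell by 1.62 ± 0.32 (limma adjusted p = 0.00399). Snrpf was at 61.3 and 62 FPKM in knockout zygotes, against 135 and 157 FPKM in control zygotes, and fell by 1.22 ± 0.19 (limma adjusted p = 0.00122). Snrpg and Snrpf were named after their values were seen. Prpf39, a factor of the U1 particle, was at 71.1 and 52.7 FPKM in knockout zygotes, against 6.23 and 6.85 FPKM in control zygotes, and rose by 3.05 ± 0.21 (limma adjusted p = 2.66e-05). It was high in the knockout oocyte too, with 45.9 and 40.8 FPKM in knockout oocytes, against 4.15 and 3.38 FPKM in control oocytes. Lsm4 and Lsm5 belong to the ring around U6 RNA. Lsm4 was at 23.5 and 38.1 FPKM in knockout zygotes, against 2.48 and 3.15 FPKM in control zygotes. Lsm5 was at 17.8 and 34.9 FPKM in knockout zygotes, against 2.64 and 0.974 FPKM in control zygotes.

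Some histone variant messages were at higher FPKM in knockout zygotes, though the share of rises in their list was near that of all genes. Of 26 histone variant and chaperone genes, 7 rose, 1 fell and 18 did not pass (median 0.06). The rises were 26.9% of the list, beside 21.3% of all 10077 genes. Among the histone variant genes there were 6 rises and 5 falls without control replicate 2. H2afx, the variant phosphorylated at DNA breaks, was at 589 and 572 FPKM in knockout zygotes, against 25.9 and 34.9 FPKM in control zygotes, and rose by 4.23 ± 0.20 (limma adjusted p = 2.15e-06). Its level in both knockout zygote libraries exceeded that in oocytes, which held 295 and 309 FPKM in knockout oocytes, against 211 and 229 FPKM in control oocytes. H1foo, the linker histone of the egg, was at 9363 and 7515 FPKM in knockout zygotes, against 2714 and 2306 FPKM in control zygotes and at 6987 and 5987 FPKM in knockout oocytes, against 7245 and 6001 FPKM in control oocytes. H2afz, the variant of promoters and heterochromatin, was at 65.1 and 58.3 FPKM in knockout zygotes, against 17 and 16.4 FPKM in control zygotes, and rose by 1.83 ± 0.19 (limma adjusted p = 0.000138). H2afj was at 14.1 and 31.9 FPKM in knockout zygotes, against 3.88 and 3.22 FPKM in control zygotes, and rose by 2.29 ± 0.42 (limma adjusted p = 0.0026). In these 4 genes no knockout library overlapped a control. The fall was Nap1l1, a nucleosome assembly gene named after its values were seen, lost without knockout replicate 2 or without control replicate 1.

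Among 16 genes of H3K9 methylation and heterochromatin, 3 rose, 2 fell and 11 did not pass (median 0.10), and the median turned to -0.07 under quantile normalization. Lbr, the lamin B receptor that tethers heterochromatin to the nuclear envelope, was at 150.1 and 173 FPKM in knockout zygotes, against 19.3 and 12.3 FPKM in control zygotes, and rose by 3.30 ± 0.23 (limma adjusted p = 2.66e-05). Mphosph8, a reader of H3K9 methylation in the HUSH complex, was at 82.2 and 92.3 FPKM in knockout zygotes, against 201 and 167 FPKM in control zygotes, and fell by 1.07 ± 0.22 (limma adjusted p = 0.00457). Lmnb1, a lamin gene, was at 0.503 and 0.107 FPKM in knockout zygotes, against 3.77 and 1.1 FPKM in control zygotes. Cbx3, which encodes HP1 gamma, was at 4.68 and 6.07 FPKM in knockout zygotes, against 0.984 and 0.908 FPKM in control zygotes. Both passed with all libraries but lost the call without at least 1 zygote library, and the same held for the rise of Setdb2, named after its values were seen.

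Enzymes and readers of other histone marks were called in both directions. Of 20 H3K36 methyltransferases and readers, 3 rose, 4 fell and 13 did not pass (median -0.38). Among the H3K36 genes there were 1 rise and 2 falls without knockout replicate 2, 1 rise and 3 falls (median -0.23) without control replicate 1 and 7 falls without control replicate 2. Apart from Setd2, Nsd1, which dimethylates H3K36, was at 8.34 and 6.18 FPKM in knockout zygotes, against 17.2 and 16.1 FPKM in control zygotes, and fell by 1.10 ± 0.23 (limma adjusted p = 0.00478). Phf19 and Whsc1 were also called lower, and Setmar, Morf4l1 and Brpf1 higher, each lost without at least 1 zygote library. Of 18 genes of the H3K4 methylation list, not all of which encode enzymes that place the mark, 7 fell and 11 did not pass (median -0.52). Among the H3K4 genes there were 1 fall without knockout replicate 2, 1 fall (median -0.24) without control replicate 1 and 8 falls (median -0.81) without control replicate 2. Mll5, an MLL family gene, was at 0.264 and 0.481 FPKM in knockout zygotes, against 1.57 and 2.06 FPKM in control zygotes, and fell by 1.03 ± 0.20 (limma adjusted p = 0.00392). Mll2 was at 6.41 and 4.49 FPKM in knockout zygotes, against 19.7 and 10.7 FPKM in control zygotes. Mll3 was at 12.2 and 7.39 FPKM in knockout zygotes, against 28.9 and 17.6 FPKM in control zygotes. Kdm1a, the demethylase that removes H3K4 methylation, was at 9.35 and 3.0 FPKM in knockout zygotes, against 26.3 and 15 FPKM in control zygotes. Those 3 calls and those of Wbp7, Paxip1 and Dpy30 were lost without knockout replicate 2 or without control replicate 1.

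Of 23 Polycomb subunits, 2 rose, 3 fell and 18 did not pass (median 0.22). Among the Polycomb genes there were 1 rise and 4 falls (median 0.00) without knockout replicate 1 and 1 rise and 3 falls (median 0.42) without knockout replicate 2. Suz12, which holds together the complex that methylates H3K27, was at 19.2 and 15.6 FPKM in knockout zygotes, against 85.9 and 44.5 FPKM in control zygotes, and fell by 1.78 ± 0.31 (limma adjusted p = 0.00209). In oocytes it was at 16.7 and 16.5 FPKM in knockout oocytes, against 18.7 and 13.2 FPKM in control oocytes, so control zygotes were the group set apart. Ezh2, the methyltransferase of that complex, was at 92.6 and 81.1 FPKM in knockout zygotes, against 207 and 148 FPKM in control zygotes, and its call was lost without control replicate 1. Pcgf3, of a variant PRC1 complex, was at 3.73 and 4.63 FPKM in knockout zygotes, against 10.3 and 12 FPKM in control zygotes, and fell by 1.23 ± 0.24 (limma adjusted p = 0.00337). The rises, Rnf2 and Pcgf5, were lost without at least 1 zygote library. Of 16 genes of DNA methylation and the TET enzymes, 2 rose, 3 fell and 11 did not pass (median -0.07). Among the DNA methylation genes there were 3 rises without knockout replicate 2 and 3 rises and 1 fall without control replicate 1. Tet2, which oxidizes methylcytosine, was at 2.84 and 1.66 FPKM in knockout zygotes, against 0.263 and 0.453 FPKM in control zygotes, and rose by 1.24 ± 0.27 (limma adjusted p = 0.00599). Dnmt3a, the DNA methyltransferase of oocytes, was at 13.7 and 15.1 FPKM in knockout zygotes, against 39.5 and 22.1 FPKM in control zygotes. Its cofactor Dnmt3l was at 59 and 86.2 FPKM in knockout zygotes, against 55.1 and 40.03 FPKM in control zygotes, and did not pass (limma adjusted p = 0.0788). The calls of Dnmt3a, Dnmt3b, Hells and Zbtb33 were lost without at least 1 zygote library. Whsc1, Setmar, Brpf1, Wbp7, Paxip1, Dpy30, Pcgf5, Dnmt3b and Dnmt3l were named after their values were seen.

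Maternal-effect genes and the machinery of RNA storage showed no common direction. Of 29 genes of the maternal-effect and subcortical complex list, 4 rose, 5 fell and 20 did not pass (median 0.04), and the median turned to -0.02 under median-ratio rescaling and -0.11 under quantile normalization. Among the maternal-effect genes there were 1 rise and 2 falls without knockout replicate 2, 2 rises and 1 fall without control replicate 1 and 3 rises and 2 falls without control replicate 2. Khdc3, a member of the subcortical maternal complex that embryos need to cleave, was at 277 and 391 FPKM in knockout zygotes, against 42.7 and 30.0 FPKM in control zygotes, and rose by 3.17 ± 0.30 (limma adjusted p = 7.15e-05). In oocytes it was at 329 and 463 FPKM in knockout oocytes, against 975 and 894 FPKM in control oocytes, a fall of 1.25 in the knockout (limma adjusted p = 0.032). Nlrp4a, of an oocyte NLRP family, was at 136 and 137 FPKM in knockout zygotes, against 242 and 276 FPKM in control zygotes, and fell by 0.91 ± 0.18 (limma adjusted p = 0.00345). Smarca4, the chromatin remodeller BRG1, was at 2.84 and 2.97 FPKM in knockout zygotes, against 12 and 6.65 FPKM in control zygotes, a call lost without control replicate 1. Zar1l, Nlrp2 and Oas1c were called higher and Zbed3, Bcl2l10 and Bnc1 lower, and each lost its call without at least 1 zygote library. All of these but Zar1l were named after their values were seen.

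Of 52 genes of maternal RNA storage and decay, 9 rose, 10 fell and 33 did not pass (median -0.34). Among the storage and decay genes there were 7 rises and 2 falls (median -0.17) without knockout replicate 2 and 7 rises and 4 falls without control replicate 1. Under quantile normalization 7 rose and 18 fell. Tob1, which recruits the CCR4-NOT deadenylase, was at 17.1 and 32.3 FPKM in knockout zygotes, against 3.02 and 2.79 FPKM in control zygotes, and rose by 2.65 ± 0.35 (limma adjusted p = 0.000504). Patl2, an oocyte RNA-binding protein needed for maturation, was at 44 and 66.3 FPKM in knockout zygotes, against 10.5 and 8.73 FPKM in control zygotes, and rose by 2.38 ± 0.33 (limma adjusted p = 0.000643). Cpeb1, which binds the polyadenylation element shown above, was at 217 and 312 FPKM in knockout zygotes, against 101 and 100.2 FPKM in control zygotes, and rose by 1.36 ± 0.25 (limma adjusted p = 0.00256), and was named after its values were seen. Papola, the nuclear poly(A) polymerase, was at 40.7 and 34.5 FPKM in knockout zygotes, against 16.4 and 15.1 FPKM in control zygotes, and rose by 1.20 ± 0.22 (limma adjusted p = 0.00252). Dcp2, the decapping enzyme that accumulates as the egg matures, was at 12.3 and 8.91 FPKM in knockout zygotes, against 35.4 and 36.1 FPKM in control zygotes, and fell by 1.68 ± 0.25 (limma adjusted p = 0.000775). Its level in oocytes was 5.1 and 5.35 FPKM in knockout oocytes, against 5.2 and 6.25 FPKM in control oocytes. For Dcp2 both control zygote libraries stood above the 6 other libraries of knockout zygotes and oocytes.

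Cell-cycle genes of meiosis split as well. Of 50 genes of meiotic arrest, exit and M phase, 8 rose, 6 fell and 36 did not pass (median -0.12), and quantile normalization gave 6 and 11. Among the meiotic arrest and exit genes there were 5 rises and 1 fall without knockout replicate 2 and 4 rises and 4 falls without control replicate 1. Bub1b, of the spindle checkpoint, was at 409 and 353 FPKM in knockout zygotes, against 85.3 and 56 FPKM in control zygotes, and rose by 2.44 ± 0.22 (limma adjusted p = 5.41e-05). Cdc26, a subunit of the anaphase-promoting complex, was at 113 and 88.6 FPKM in knockout zygotes, against 30.6 and 32.9 FPKM in control zygotes, and rose by 1.63 ± 0.22 (limma adjusted p = 0.000605). Ccnb3, the cyclin that oocytes need to leave metaphase I, was at 3.54 and 3.3 FPKM in knockout zygotes, against 9.83 and 16 FPKM in control zygotes, and fell by 1.62 ± 0.29 (limma adjusted p = 0.00226). Of 49 kinetochore and spindle genes, 14 rose, 6 fell and 29 did not pass (median 0.06), and the median turned to -0.10 under quantile normalization. Among the kinetochore genes there were 7 rises and 3 falls without knockout replicate 2 and 10 rises and 3 falls without control replicate 2. Haus1, of the augmin complex, was at 29.4 and 52.9 FPKM in knockout zygotes, against 5.57 and 4.35 FPKM in control zygotes, and rose by 2.77 ± 0.32 (limma adjusted p = 0.000207). Cenpt and Cenpm belong to the inner kinetochore. Cenpt was at 20.0 and 31.7 FPKM in knockout zygotes, against 2.85 and 7.25 FPKM in control zygotes. Cenpm was at 40.7 and 82.3 FPKM in knockout zygotes, against 12.3 and 16 FPKM in control zygotes.

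In the list of the meiotic chromosome axis and recombination more genes fell than rose, with several of the falls in a single X-linked family. Of 27 genes of meiotic axis and recombination, 5 rose, 10 fell and 12 did not pass in zygotes (median -0.51), and 12 fell in oocytes (median -0.79). Among the meiotic axis genes there were 4 rises and 10 falls (median -0.27) without control replicate 2. Xlr5c, Xlr5b and Xlr5a belong to an X-linked family of nuclear proteins. Xlr5c was at 0 and 0.278 FPKM in knockout zygotes, against 21.5 and 19.8 FPKM in control zygotes, and fell by 4.26 ± 0.34 (limma adjusted p = 3.97e-05). Xlr5b was at 0.428 and 0.252 FPKM in knockout zygotes, against 13.9 and 11.2 FPKM in control zygotes, and fell by 3.33 ± 0.25 (limma adjusted p = 3.36e-05). Xlr5a was at 0.0918 and 0.746 FPKM in knockout zygotes, against 5.89 and 6.89 FPKM in control zygotes, and fell by 2.42 ± 0.27 (limma adjusted p = 0.000171). The sequences of this family are so alike that reads may be divided among its copies. Hormad1, which marks unsynapsed chromosome axes, was at 0.203 and 0 FPKM in knockout zygotes, against 11.8 and 15.1 FPKM in control zygotes, and in oocytes at 0.314 and 0.111 FPKM in knockout oocytes, against 22.8 and 14.9 FPKM in control oocytes. Sycp3, of the synaptonemal complex, was at 8.67 and 7.96 FPKM in knockout zygotes, against 22 and 21.2 FPKM in control zygotes, and fell by 1.28 ± 0.24 (limma adjusted p = 0.00276), with 5.01 and 4.49 FPKM in knockout oocytes, against 15.7 and 19.9 FPKM in control oocytes before fertilization. Dmc1, Smc1b, Tex12, Xlr4b and Xlr3b made up the rest of the falls. Xlr4b and Xlr3b belong with the Xlr5 genes to the wider Xlr family, so the 10 falls are not of 10 unrelated genes. In the other direction Smc3, a cohesin subunit, was at 39.6 and 35.2 FPKM in knockout zygotes, against 8.81 and 7.76 FPKM in control zygotes, and rose by 2.05 ± 0.19 (limma adjusted p = 6.63e-05). Psmc3ip and Syce1 also rose, and Smc1a did too, though its call was lost without knockout replicate 2 or without either control. Genes of this list other than the Xlr5 family, Hormad1 and Smc3 were named after their values were seen.

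Of 36 genes of the first embryonic transcription in the 2-cell embryo, 15 reached the 1 FPKM rule, of which 4 rose, 4 fell and 7 did not pass. Dux, the factor that opens the 2-cell program, was at 0.292 and 0 FPKM in knockout zygotes, against 1.44 and 3.99 FPKM in control zygotes, and fell by 1.62 ± 0.32 (limma adjusted p = 0.00399), levels that rest on few fragments. Sp110 was at 39.6 and 55.1 FPKM in knockout zygotes, against 147 and 129.8 FPKM in control zygotes, and fell by 1.54 ± 0.27 (limma adjusted p = 0.00222), and it was also lower in the knockout oocyte, with 35.4 and 58.4 FPKM in knockout oocytes, against 112 and 159.6 FPKM in control oocytes. Cml2 was at 8.85 and 11 FPKM in knockout zygotes, against 25.4 and 20.0 FPKM in control zygotes, and fell by 1.12 ± 0.22 (limma adjusted p = 0.00354). Usp17le, of a deubiquitinase family of near-identical copies, was at 2.05 and 2.09 FPKM in knockout zygotes, against 0 and 0.346 FPKM in control zygotes. Eif1a and Ddit4l also rose. Dppa2 was called higher and Klf17 lower, and both calls were lost without knockout replicate 2 or without either control. These 4 were named after their values were seen.

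Of 22 imprinted genes under maternally methylated regions, 5 rose, 2 fell and 15 did not pass (median -0.15). Phlda2, which restrains placental growth, was at 74.1 and 74.8 FPKM in knockout zygotes, against 26.5 and 27.2 FPKM in control zygotes, and rose by 1.44 ± 0.24 (limma adjusted p = 0.00149), with 71.1 and 57.6 FPKM in knockout oocytes, against 30.0 and 34.9 FPKM in control oocytes. Sgce was at 1.42 and 1.32 FPKM in knockout zygotes, and listed at 0 in both control zygote libraries (limma adjusted p = 0.00612). Zrsr1 was at 1.42 and 3.48 FPKM in knockout zygotes, and listed at 0 in both control zygote libraries (limma adjusted p = 0.00396). Mcts2 was at 7.18 and 5.71 FPKM in knockout zygotes, against 0 and 0.982 FPKM in control zygotes (limma adjusted p = 0.00664), a call lost without control replicate 1. Tssc4 also rose and Zim1 and Slc22a3 fell, all 3 named after their values were seen. Tssc4 and Slc22a3 lost their calls without at least 1 zygote library, and Zim1 and Slc22a3 with a pseudocount of 0.1. Of 5 measured genes imprinted by maternal H3K27 trimethylation, Rbms1 rose, at 3.25 and 2.33 FPKM in knockout zygotes, against 0.687 and 1.0 FPKM in control zygotes, a call lost without control replicate 1, and 4 did not pass.

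Genes of DNA replication and repair were called in both directions. Of 55 replication genes, 12 rose, 5 fell and 38 did not pass, and quantile normalization gave 10 and 11. Among the replication genes there were 5 rises and 4 falls without knockout replicate 2, 6 rises and 3 falls without control replicate 1 and 5 rises and 3 falls without control replicate 2. Tyms, which makes thymidylate, was at 21.2 and 55.5 FPKM in knockout zygotes, against 1.97 and 2.99 FPKM in control zygotes, and rose by 3.36 ± 0.36 (limma adjusted p = 0.000138). Orc1, of the origin recognition complex, was at 81.9 and 79.8 FPKM in knockout zygotes, against 25.5 and 35.2 FPKM in control zygotes, and rose by 1.40 ± 0.21 (limma adjusted p = 0.00096). Rfc2 and Rfc4 are parts of the clamp loader. Rfc2 was at 13.5 and 28.9 FPKM in knockout zygotes, against 2.59 and 2.87 FPKM in control zygotes. Rfc4 was at 21.2 and 25.1 FPKM in knockout zygotes, against 6.47 and 6.02 FPKM in control zygotes. Of 47 repair genes, 8 rose, 9 fell and 30 did not pass (median -0.07). Among the repair genes there were 6 rises and 5 falls without knockout replicate 2 and 6 rises and 3 falls without control replicate 1. Xrcc1, the scaffold of single-strand break repair, was at 53.3 and 75.2 FPKM in knockout zygotes, against 6.18 and 2.38 FPKM in control zygotes, and rose by 3.71 ± 0.39 (limma adjusted p = 0.000137). Rnf8, the ubiquitin ligase at double-strand breaks, was at 339 and 403 FPKM in knockout zygotes, against 129 and 115 FPKM in control zygotes, and rose by 1.59 ± 0.20 (limma adjusted p = 0.000391). Apex1, the abasic-site nuclease, was at 42.7 and 71.8 FPKM in knockout zygotes, against 18.1 and 20.8 FPKM in control zygotes, and rose by 1.47 ± 0.25 (limma adjusted p = 0.00177). Of 28 genes of the p53 response and apoptosis, 3 rose, 6 fell and 19 did not pass. Among the p53 response genes there were 2 rises and 3 falls without knockout replicate 2 and 3 rises and 3 falls without control replicate 1. Gadd45g, a growth arrest gene, was at 0.303 and 0.321 FPKM in knockout zygotes, against 4.78 and 5.63 FPKM in control zygotes, and fell by 2.24 ± 0.23 (limma adjusted p = 0.000112). Bax, which permeabilizes mitochondria, was at 1.59 and 2.11 FPKM in knockout zygotes, against 22 and 6.11 FPKM in control zygotes, and fell by 2.17 ± 0.47 (limma adjusted p = 0.00628). Ddit3, a factor of the unfolded protein response, was at 80.0 and 155 FPKM in knockout zygotes, against 28.3 and 37 FPKM in control zygotes, and rose by 1.75 ± 0.34 (limma adjusted p = 0.00352).

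Lists of transport, transcription and lysosome genes held calls in both directions. Of 48 nuclear pore and transport genes, 4 rose, 3 fell and 41 did not pass (median -0.06), and quantile normalization gave 4 and 10. Among the nuclear pore genes there were 5 rises and 6 falls without knockout replicate 1 and 3 rises and 1 fall without knockout replicate 2. Nxt1, of the mRNA exporter, was at 283 and 346 FPKM in knockout zygotes, against 89.5 and 104 FPKM in control zygotes, and rose by 1.68 ± 0.18 (limma adjusted p = 0.000126). Its partner Nxf1 was at 54.3 and 88.6 FPKM in knockout zygotes, against 19.4 and 31.1 FPKM in control zygotes, and rose by 1.46 ± 0.27 (limma adjusted p = 0.00276). Nup133, of the pore scaffold, was at 5.36 and 8.69 FPKM in knockout zygotes, against 1.08 and 1.04 FPKM in control zygotes. Nup214, on its cytoplasmic face, was at 20.9 and 24.7 FPKM in knockout zygotes, against 61 and 52 FPKM in control zygotes. Of 55 genes of the RNA polymerase II machinery, 10 rose, 4 fell and 41 did not pass. Among the polymerase II genes there were 14 rises and 11 falls without knockout replicate 1, 9 rises and 1 fall without knockout replicate 2 and 10 rises and 2 falls without control replicate 1. Polr2k, a small shared subunit of the polymerases, was at 36.1 and 67 FPKM in knockout zygotes, against 3.78 and 8.82 FPKM in control zygotes, and rose by 2.87 ± 0.43 (limma adjusted p = 0.000955). Of 32 lysosome and V-ATPase genes, 8 rose, 3 fell and 21 did not pass (median 0.25). Among the lysosome genes there were 8 rises and 4 falls (median 0.39) without knockout replicate 1, 6 rises and 1 fall (median 0.12) without knockout replicate 2 and 5 rises and 1 fall without control replicate 1. Ctsl, a lysosomal protease, was at 5.86 and 10.8 FPKM in knockout zygotes, against 0.148 and 0.329 FPKM in control zygotes, and rose by 2.87 ± 0.38 (limma adjusted p = 0.000465). Tpp1, another lysosomal peptidase, was at 0.969 and 0.856 FPKM in knockout zygotes, against 5.34 and 6.54 FPKM in control zygotes, and fell by 1.85 ± 0.21 (limma adjusted p = 0.000208).

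Some of the largest rises were of genes outside the lists. Pnpla3, a lipase-like protein of lipid droplets, was at 85.2 and 60.7 FPKM in knockout zygotes, against 0 and 0.327 FPKM in control zygotes, and rose by 5.99 ± 0.35 (limma adjusted p = 1.16e-05), the largest rise of the 10077 genes. Upp1, the uridine phosphorylase, was at 49.7 and 174 FPKM in knockout zygotes, against 1.5 and 0.828 FPKM in control zygotes, and rose by 5.46 ± 0.47 (limma adjusted p = 5.13e-05). Gstt2, a glutathione transferase, was at 36.9 and 93.4 FPKM in knockout zygotes, against 1.35 and 0.996 FPKM in control zygotes, and rose by 4.79 ± 0.35 (limma adjusted p = 2.66e-05). Hint3, a nucleotide hydrolase, was at 12.9 and 33.1 FPKM in knockout zygotes, and listed at 0 in both control zygote libraries, and was called higher (limma adjusted p = 5.13e-05). Bola1, a mitochondrial protein of iron-sulfur cluster assembly, was at 23.2 and 66.3 FPKM in knockout zygotes, against 3.49 and 0 FPKM in control zygotes. C1galt1c1, the chaperone Cosmc of O-glycan synthesis, was at 71.8 and 109 FPKM in knockout zygotes, against 2.61 and 5.35 FPKM in control zygotes, and rose by 4.22 ± 0.34 (limma adjusted p = 3.97e-05). Zfp707, a zinc finger gene, was at 34.2 and 59 FPKM in knockout zygotes, against 1.3 and 1.26 FPKM in control zygotes, and rose by 4.33 ± 0.61 (limma adjusted p = 0.000644). For each of these 7 genes both knockout libraries lay above both controls, which the rule for naming the largest rises required. With any 1 zygote library left out all 7 still rose, the smallest rise being 3.17, for Bola1.

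Among the largest falls, Gng5, a G protein gamma subunit, was at 11.6 and 8.47 FPKM in knockout zygotes, against 80.5 and 73.5 FPKM in control zygotes, and fell by 2.83 ± 0.30 (limma adjusted p = 0.000138). Lrrc17, a secreted leucine-rich repeat protein, was at 7.38 and 10.1 FPKM in knockout zygotes, against 86.6 and 70.7 FPKM in control zygotes, and fell by 3.04 ± 0.32 (limma adjusted p = 0.000134). Stx7, a syntaxin of endosome fusion, was at 2.31 and 2.82 FPKM in knockout zygotes, against 21 and 34 FPKM in control zygotes, and fell by 2.96 ± 0.27 (limma adjusted p = 6.54e-05). Hnrnph2, an X-linked splicing regulator, was at 0.246 and 1.04 FPKM in knockout zygotes, against 12.3 and 13.6 FPKM in control zygotes, and fell by 3.12 ± 0.35 (limma adjusted p = 0.000177). Cd200, a membrane glycoprotein that restrains myeloid cells, was at 0.496 and 0.919 FPKM in knockout zygotes, against 10.03 and 12.1 FPKM in control zygotes, and fell by 2.83 ± 0.25 (limma adjusted p = 5.13e-05). Tex11, a meiotic crossover gene on the X chromosome, was at 0.338 and 1.67 FPKM in knockout zygotes, against 11.9 and 12.5 FPKM in control zygotes, and fell by 2.81 ± 0.33 (limma adjusted p = 0.000224). Gsto2, a glutathione transferase of the omega class, was listed at 0 in both knockout zygote libraries, against 4.72 and 7.16 FPKM in control zygotes, with 0.244 and 1.73 FPKM in knockout oocytes, against 25.9 and 8.1 FPKM in control oocytes. Psg17 and Cts3 are known from the placenta and belong to families of close copies. Psg17 was at 1.69 and 1.2 FPKM in knockout zygotes, against 16.3 and 24.6 FPKM in control zygotes. Cts3 was at 0.228 and 0 FPKM in knockout zygotes, against 5.72 and 7.62 FPKM in control zygotes. Klk15, of the kallikrein proteases, was at 0.945 and 0.501 FPKM in knockout zygotes, against 13.1 and 12.9 FPKM in control zygotes. The RNA gene Vaultrc5 was listed at 0 in both knockout zygote libraries, against 14.6 and 6.08 FPKM in control zygotes. FPKM scales by length, so such values of a short RNA can rest on few fragments. Whether this RNA carried a poly(A) tail was not measured. In all of these both knockout libraries lay below both controls, which the rule for naming the largest falls required. With any 1 zygote library left out each still fell, the smallest change being -2.31, for Tex11.

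**Figure D3:**
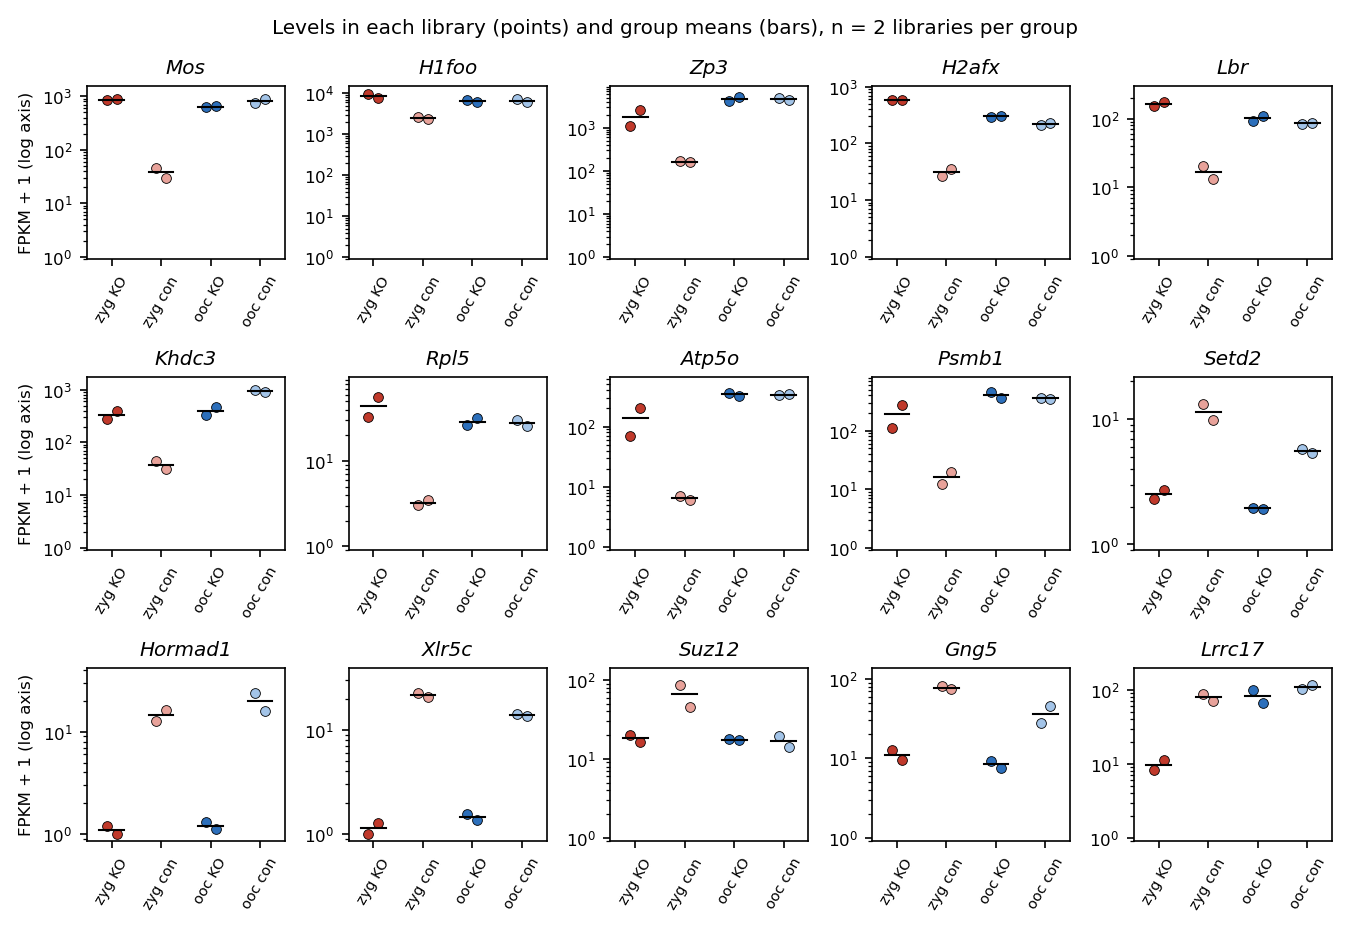
FPKM + 1 (vertical, log axis) of 15 genes in each library (points), with bars at group means, for knockout zygotes, control zygotes, knockout oocytes and control oocytes, 2 libraries per group. Mos, H2afx and Lbr are low in control zygotes alone, Suz12 is high in control zygotes alone, and Hormad1, Xlr5c and Gng5 are low in knockout zygotes and in knockout oocytes.

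The study's question was whether changes of the oocyte pass to the embryo, so the zygote effect was set beside the oocyte effect. In oocytes limma called 750 of the 10077 genes (7.44%), of which 218 (2.16%) rose and 532 (5.28%) fell. Over all 12199 genes tested the oocyte shares were 6.92%, 2.02% and 4.89%. Of the oocyte rises, 173 also rose in zygotes, which is 79.4% of the 218 oocyte rises and 8.08% of the 2142 zygote rises. Of the oocyte falls, 260 also fell in zygotes, 48.9% of the 532 and 16.9% of the 1534 zygote falls. Opposite calls were few, with 38 genes higher in zygotes and lower in oocytes, and 8 the other way. Prpf39, Phlda2 and Sgce were higher at both stages, and Hormad1, Xlr5c and Gng5 lower at both (in oocytes, limma adjusted p = 4.71e-05, 0.0364, 0.011, 0.00265, 0.00104 and 0.00544).

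The size of the effect differed between the stages for 1096 genes (10.9%) by the interaction term of limma, 969 (9.62%) with a higher and 127 (1.26%) with a lower value in the zygote comparison. Over all 12199 genes tested these shares were 9.39%, 8.29% and 1.10%. The median difference was 0.24, and the split depended on scaling: median-ratio rescaling gave 630 and 194, and quantile normalization 647 and 296. So 88.4% of these calls were higher as deposited, 76.5% after median-ratio rescaling and 68.6% after quantile normalization. Leaving out 1 of the 8 zygote and oocyte libraries gave 309 to 1835 calls, with 332 without oocyte knockout replicate 1, 530 and 309 without oocyte control replicate 1 or 2, 711 without oocyte knockout replicate 2, 642 and 1835 without zygote knockout replicate 2 or 1, and 696 without zygote control replicate 2, and those 8 libraries alone gave 513. Of the cytosolic ribosomal proteins 49 were among the higher group, of the oxidative phosphorylation genes 42 and of the mitochondrial ribosomal proteins 32. Their median oocyte effects were -0.34, -0.30 and -0.32, beside zygote effects of 2.07, 1.33 and 0.90. Lrrc17 differed the other way, at 7.38 and 10.1 FPKM in knockout zygotes, against 86.6 and 70.7 FPKM in control zygotes and at 97.9 and 64.5 FPKM in knockout oocytes, against 100.4 and 114 FPKM in control oocytes, a difference of effects of -2.61 (limma adjusted p = 0.00672).

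**Figure D4:**
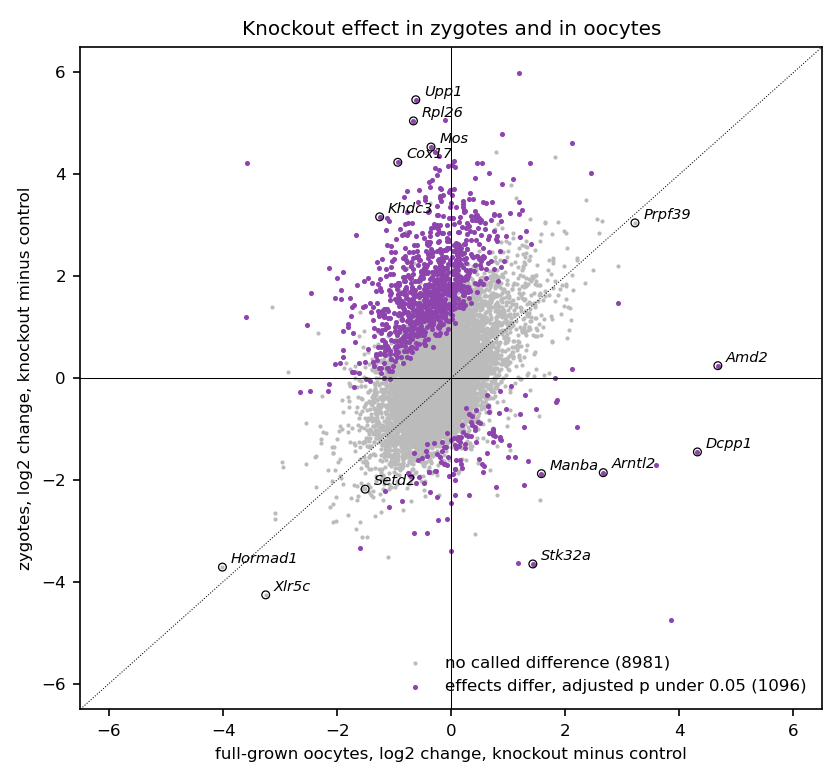
Knockout minus control difference of log2(FPKM + 1) in zygotes (vertical) against full-grown oocytes (horizontal) for 10077 genes, with purple for the 1096 whose effects differed and a dotted line of equal effect. Hormad1, Xlr5c and Prpf39 lie near that line, while Mos, Upp1 and Rpl26 lie high with oocyte effects near or below 0, and Dcpp1 and Amd2 lie far to the right.

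Transcript length moved with the calls. The median transcript length was 2026 nt for genes called higher, 3335 nt for genes called lower and 2799 nt for all genes. Across 5 equal groups of length, from the shortest to the longest, the share called higher was 35.5%, 26.8%, 19.9%, 15.0% and 9.09%, and the share called lower was 11.01%, 12.6%, 13.7%, 16.5% and 21.8%. The median change was 0.47 in the shortest group and -0.25 in the longest. Without the lists of ribosomal proteins and oxidative phosphorylation, whose transcripts are short, the shortest group still had 31.9% called higher and a median of 0.37. Lengths came from the GENCODE vM21 annotation and not from the annotation behind the FPKM values, and the part of length in the group results above was not tested. Median lengths were 860 nt for the cytosolic ribosomal proteins, 875 nt for oxidative phosphorylation and 5850 nt for the H3K4 methylation list.

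**Figure D5:**
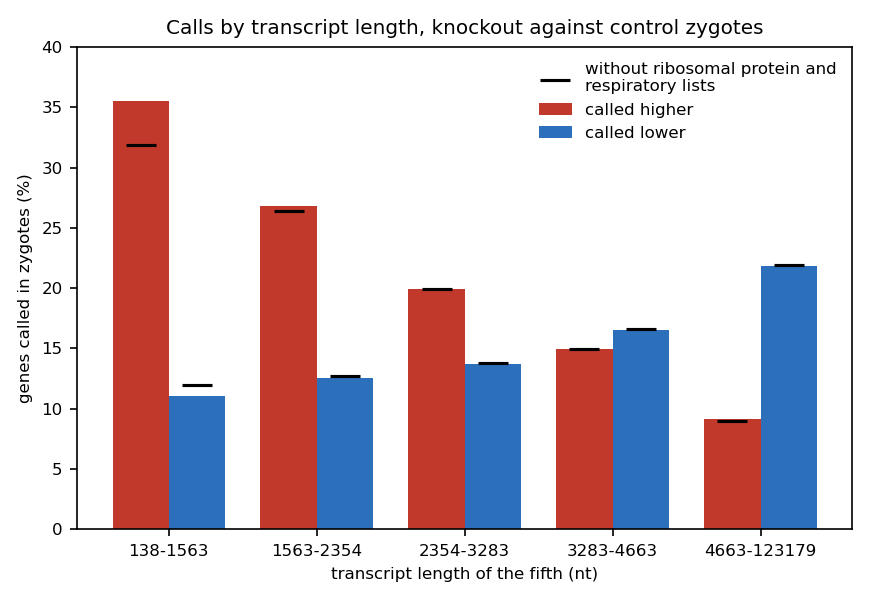
Percent of genes called higher (red) or lower (blue) in knockout zygotes (vertical) in 5 groups of increasing transcript length in nt (horizontal), with black marks for the same shares without the ribosomal protein and oxidative phosphorylation lists. The share called higher drops from the shortest group to the longest and the share called lower climbs.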

How the data were processed

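RNA of full-grown oocytes, zygotes and a set labelled 48h was measured in 1 table of 12 libraries. Each came from Setd2 knockout and control females, with 2 libraries per group. In the 48h set the controls are labelled 2C and the knockouts 1C. The values are FPKM as deposited by the authors, not counts. Per the submitters' processing notes the tools included Cufflinks 2.0.2 and TopHat2 2.0.11, and the build was mm9. Their roles and parameters are not given in the sources used here. FPKM scales by transcript length, and the division of reads among near-identical copies is not known, so short and repeated genes are the least certain. Depth is not recorded and was estimated from the smallest FPKM steps, where 1 FPKM of a 2 kb transcript is about 6.15 to 6.78 fragments in zygotes.

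A pseudocount of 1 was added, values were taken to log2, and the 12199 genes reaching 1 FPKM in 2 or more of the 12 libraries entered a limma 3.58.1 fit (R 4.3.3) of 6 groups with a variance trend and Benjamini-Hochberg adjustment. All 6 groups share 1 estimate of spread. The threshold was an adjusted p of 0.05. The knockout effect in zygotes, that in oocytes and their difference were tested. On simulated data of 12041 genes the zygote test recovered 33% of 2-fold and 89% of 4-fold changes with 6 false calls. The simulation changed only 200 genes, all well above the filter in control zygotes, far fewer than the 3676 called here. It gave each library independent noise, without shifts shared by many genes. These figures are therefore not the recovery or error rate of the test on the real data. Gene lists were given by their counts and medians. The genes described, the 31 lists and the 6 marker lists were chosen with earlier results of these data known.

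Named genes were Setd2, the 15 called genes that rose most and the 15 that fell most where groups did not overlap and the higher group averaged 5 FPKM or more, in each list the 4 calls of lowest adjusted p, and the 6 largest differences each way between zygotes and oocytes with a group mean of 5 FPKM or more. Unnamed gene models and odorant receptors were left out. Genes named beyond that rule are marked in the text, and not every gene the rule picks is reported here. Transcript lengths and 3′ UTRs came from GENCODE vM21 (GRCm38), where 21971 of 22592 genes matched, and no coordinates are given because the table was made on mm9. Alternatives were 2 rescalings, other pseudocounts and filters, no trend, a replicate block, the compared libraries alone and leaving out each library.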

Additional observations from a re-analysis of the deposited data

Results flagged for a closer look

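The knockout effect differed between zygotes and full-grown oocytes for 1096 genes by the interaction term of limma, with 969 higher and 127 lower in the zygote comparison. The causes were not tested. The 6 largest differences in the higher direction, on the log2(FPKM + 1) scale, were 7.80 for Rps18, 6.09 for Upp1, 5.71 for Rpl26, 5.17 for Cox17, 5.17 for Snrpd2 and 4.89 for Mos. In all 6 the control zygotes had the lowest mean of the 4 groups. Upp1 was at 49.7 and 174 FPKM in knockout zygotes, against 1.5 and 0.828 FPKM in control zygotes, and at 156 and 244 FPKM in knockout oocytes, against 313 and 289 FPKM in control oocytes. Rps18 lost its call in 6 of 17 alternatives.

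The 6 largest in the lower direction were -5.77 for Dcpp1, -5.28 for Dcpp2, -5.08 for Stk32a, -4.52 for Arntl2, -4.43 for Amd2 and -3.46 for Manba. Differences of genes listed at 0 in a group depend on the pseudocount and are not bounds. Dcpp1 was listed at 0 in both knockout zygote libraries, against 2.11 and 1.4 FPKM in control zygotes, and at 24.3 and 20.1 FPKM in knockout oocytes, against 0.153 and 0.167 FPKM in control oocytes. Amd2 was at 73.6 and 52.9 FPKM in knockout zygotes, against 56.1 and 49.3 FPKM in control zygotes, and at 12.5 and 48.4 FPKM in knockout oocytes, against 0.0165 and 0.00902 FPKM in control oocytes. The zygote groups of Amd2 overlapped. Arntl2, a circadian transcription factor, was at 2.25 and 6.05 FPKM in knockout zygotes, against 14.2 and 18.8 FPKM in control zygotes, and at 17.4 and 16.5 FPKM in knockout oocytes, against 2.02 and 1.66 FPKM in control oocytes. Stk32a, a kinase, was at 0.224 and 0.158 FPKM in knockout zygotes, against 14.4 and 13.5 FPKM in control zygotes, and at 31.5 and 24.3 FPKM in knockout oocytes, against 13.4 and 6.85 FPKM in control oocytes. The Dcpp and Amd genes have near-identical copies, and how reads were divided among them is not given in the sources used here. Stk32a lost its call in 3 of 17 alternatives and Manba in 2.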

How the results depend on the processing

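The 3676 calls of the zygote comparison became 0 with the 4 zygote libraries alone, where 3289 genes had an unadjusted p under 0.05. In that fit the spread was estimated from those libraries only. Leaving out 1 zygote library gave 2171 to 3715 calls, the lowest without knockout replicate 2. The other alternatives stayed within 1.5 times the count. The 1096 differences between zygote and oocyte effects became 525 with no filter on low values and 513 with the 8 oocyte and zygote libraries alone. Leaving out 1 library gave 309 to 1835, with 1835 without zygote knockout replicate 1, 642 without zygote knockout replicate 2, 696 without zygote control replicate 2, 332 and 711 without oocyte knockout replicate 1 or 2, and 530 and 309 without oocyte control replicate 1 or 2. The causes were not tested.

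Same-numbered zygote libraries deviated together with a correlation of 0.0742 and oocyte libraries with 0.186 over only 2 numbers, and the labels do not say what a number marks, so whether the numbers pair the libraries is not known. With the replicate block 3592 genes were called in zygotes, 2109 higher and 1483 lower, and 1028 for the difference of effects. Of 148 called genes picked by the naming rule, 123 kept the call in all 4 fits without 1 zygote library, and of 61 called genes named after their values were seen, 23 did. With 2 libraries per group, changes of genes near 1 FPKM rest on few fragments.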
